A study of Mus musculus with 6 samples.

Results

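Collagens are trimeric proteins that give tissues their tensile strength, and each chain is the product of its own gene. In the injured heart, fibroblasts lay down fibrillar collagen, which replaces lost muscle as a scar, while capillaries and muscle cells sit on sheets of basement membrane collagen. The collagen genes were followed here in hearts of mice with myocardial infarction, the loss of heart muscle after a blocked coronary artery. They were all protein-coding genes of the count table whose mouse symbol has the form Col, number, a, number, which gave 44 of 55401 genes. By textbook structure 8 are fibrillar, 6 fibril-associated, 9 of the basement membrane, 8 network-forming, 7 of cartilage and 6 transmembrane or other. The cartilage class holds the chains of collagens II, IX, X and XI, of which II and XI are also fibrillar, IX fibril-associated and X network-forming.

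Libraries came from infarcted mice kept in mild cold, at 16 °C for 7 days (3 libraries), and from infarcted mice kept at room temperature, 22 °C (3 libraries). The sources used here do not give strain, sex, age, the way the infarct was made or the time between infarct and sampling. Total counts ran from 41619023 to 65285901 per library. The labels call every sample a whole heart, but room temperature 1 stood apart from the other 5 libraries: it held 602.3 CPM (counts scaled to a common library total, with TMM factors) of the atrial light chain Myl7, where no other library passed 0.431 CPM. Summed adipocyte markers ran from 0.0536 to 38.0 CPM in mild cold, and were 733.4, 44.8 and 125.9 CPM in room temperature 1 to 3. Room temperature 3 held 22.3 CPM of the fast skeletal muscle myosin Myh4, where no other library passed 0.340 CPM. With room temperature 1 standing apart in several tissues' markers, counts and class medians are given with and without that library, as are the values of genes that it moved.

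Collagen transcripts as a family were lower in mild cold. Summed over all 44 genes, CPM was 2625, 2991 and 3484 in mild cold 1 to 3, against 3367, 5075 and 5068 CPM in room temperature 1 to 3. Room temperature 1 lay below mild cold 3, so the groups overlapped in this sum, and room temperature 2 and 3 lay above every mild cold library. The group means were 3033 ± 431.4 CPM in mild cold, against 4503 ± 983.9 CPM at room temperature (SD, n = 3 each), a ratio of 0.674, which was 0.598 without room temperature 1. Collagens took 0.278 ± 0.0437% of all counts in mild cold, against 0.489 ± 0.102% at room temperature (SD, n = 3 each). In bulk tissue, fewer collagen-making cells and less collagen RNA per cell cannot be told apart.

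Of the 44 genes, 38 passed the expression filter and were tested with edgeR's quasi-likelihood test, and all 38 had a negative log2 fold change, as 37 had by limma-voom (edgeR median -0.86, against a median of -0.02 over all 16757 genes tested). At an unadjusted p under 0.05, 23 of the 38 were lower in mild cold and 0 were higher, where 10.6% of all tested genes were lower and 9.11% higher by the same rule. In 18 of the 38 every mild cold library lay below every room temperature library, as it did in 13.1% of all tested genes. None of the 38 passed edgeR's adjusted p of 0.05 over all genes (smallest adjusted p = 0.0878, share of all genes called 0%). By the DESeq2 Wald test 15 of them passed it, all lower, where 9% of all genes with an adjusted p passed and 4.83% passed as lower, and by limma-voom 0 passed. Col2a1, Col24a1 and Col6a5, 3 of the 38, passed the filter through room temperature alone and so had to come out lower. Of the other 35, 20 were lower at an unadjusted p under 0.05, with a median of -0.75. In 15 of those 35 every mild cold library lay below every room temperature library, and 14 passed the DESeq2 Wald test. The count of 23 fell to 14 when mild cold 1 was left out, and to 16 when mild cold 2 was. It was 17 with room temperature 2 dropped, and 18 with room temperature 3 dropped (median -0.69). Dropping mild cold 3 kept it at 23. The number of all genes under that p, in either direction, also moved, but not always the same way. It was 3295 of 16757 with 6 libraries. Dropping mild cold 1 gave 2422 of 17395, dropping mild cold 2 gave 3117 of 17457 and dropping room temperature 3 gave 2543 of 17199. With room temperature 2 dropped it rose to 3722 of 17479, while the collagen count fell. With mild cold 3 dropped it fell to 2380 of 17421, while the collagen count held.

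Without room temperature 1 the same 38 genes were tested, 26 were lower at an unadjusted p under 0.05 and 0 were higher, where 8.43% of the 17231 genes tested there were lower and 6.8% higher. The median log2 fold change was -0.79, against -0.00 over all genes tested. In 31 of the 38 the mild cold libraries all lay below room temperature 2 and 3, as in 17.8% of all genes, a larger share than before because only 2 libraries have to be cleared. Again none passed edgeR's adjusted p of 0.05 (smallest adjusted p = 0.0948, 0.0116% of all genes called, 0.0058% as lower), while 21 passed the DESeq2 Wald test, where 5.94% of all genes passed and 3.56% passed as lower. Of the 35 genes past the filter in both groups, 23 were lower at an unadjusted p under 0.05 (median -0.71). In 28 of those 35 the mild cold libraries all lay below room temperature 2 and 3, and 20 passed the DESeq2 Wald test.

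**Figure D1:**
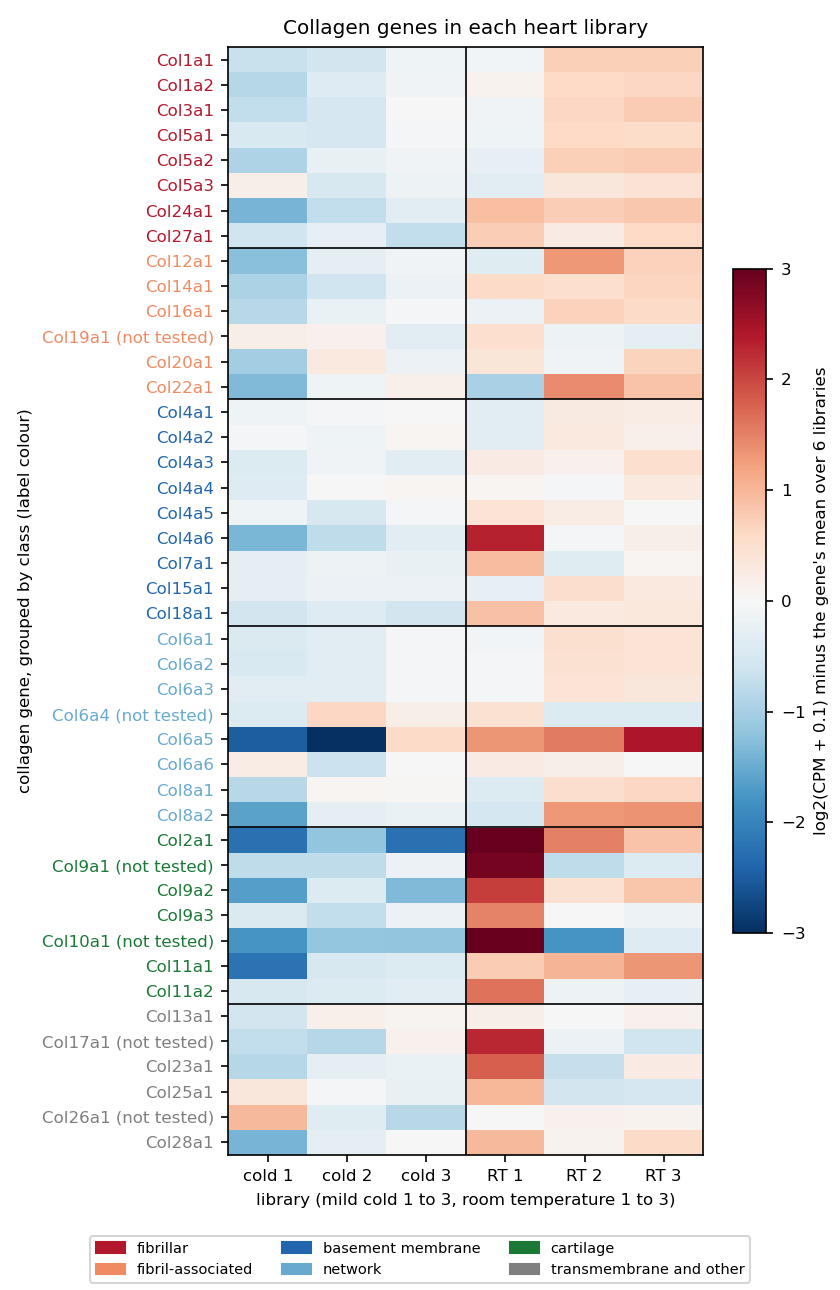
Level of each of the 44 collagen genes in the 6 libraries, as log2(CPM + 0.1) minus the gene's mean over the libraries, with rows grouped by class and mild cold columns left of room temperature columns. Most fibrillar and network rows are highest in room temperature 2 and 3, while 4 of the 5 tested cartilage genes are highest in room temperature 1.

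Fibrillar collagens, the rope-like collagens of scar, were lower in mild cold in every one of the 8 genes by sign, and 7 of 8 were lower at an unadjusted p under 0.05 (median log2 fold change -0.87). Without room temperature 1 all 8 were lower by that rule, with a median of -1.06 and no overlap between the groups in any of them. These counts and medians include Col24a1, which passed the filter through room temperature alone and so had to come out lower. Col1a1, the chain that makes up most of collagen I, had 126.5, 138.9 and 184 CPM in mild cold 1 to 3, against 190.6, 332.7 and 331.2 CPM in room temperature 1 to 3. The groups did not overlap, although room temperature 1 lay close to mild cold 3. Its log2 fold change was -0.93 (SE 0.24, edgeR adjusted p = 0.127), and -1.15 without room temperature 1 (SE 0.17, edgeR adjusted p = 0.0984). Col1a2, the partner chain of collagen I, was at 202.3, 279.1 and 341.3 CPM in mild cold, against 392, 555.7 and 565.9 CPM at room temperature. Again no library of mild cold reached a room temperature library (log2 difference -0.88, SE 0.22, edgeR adjusted p = 0.121, and -1.03 without room temperature 1).

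Col3a1, the collagen of thin and early scar fibrils, stood at 353.9, 418.5 and 583.7 CPM in mild cold, against 546.9, 911.5 and 1005 CPM at room temperature. Here room temperature 1 fell inside the mild cold range. Its log2 fold change was -0.86 (SE 0.27, edgeR adjusted p = 0.164), and -1.09 without that library (SE 0.22, edgeR adjusted p = 0.123). Per kilobase of exon, Col3a1 was the most abundant fibrillar gene, at 46.0 CPM per kb in mild cold and 83.7 CPM per kb at room temperature, ahead of Col1a1 at 22.8 and 43.4 CPM per kb. The collagen V chains, which start and thin the fibrils of collagen I, were all lower by sign. With 6 libraries Col5a1 (fold of mild cold over room temperature 0.618) and Col5a2 (fold 0.555) had an unadjusted p under 0.05. Col5a3, at 19.5 ± 4.45 CPM in mild cold, against 24.5 ± 6.36 CPM at room temperature (SD, n = 3 each), did not. Without room temperature 1 it did (log2 fold change -0.52, SE 0.19, edgeR unadjusted p = 0.0256). For Col3a1, the unadjusted p no longer passed 0.05 without mild cold 1, mild cold 2 or room temperature 3.

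A pair of minor fibrillar genes did not follow room temperature 1 downward. Col27a1, a fibrillar collagen best known from cartilage, was at 6.92, 8.82 and 6.25 CPM in mild cold, against 17.7, 12.5 and 16.1 CPM at room temperature, where room temperature 1 was the highest. That gave the smallest p of the class (log2 difference -1.07, SE 0.18, unadjusted p = 5.13e-04, edgeR adjusted p = 0.0878). Col24a1, a fibrillar collagen known from developing bone, passed the filter through room temperature alone, so its direction was fixed, with 2, 4 and 7 counts in mild cold 1 to 3 and 26, 20 and 37 counts at room temperature.

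Fibril-associated collagens sit on the surface of fibrils and link them to other matrix. Of 6 genes 5 were tested, and 3 were lower at an unadjusted p under 0.05 (median log2 fold change -1.07), 4 without room temperature 1 (median -1.11). In Col14a1, which binds fibrils of collagen I, room temperature 1 stood level with the other room temperature libraries. It was at 50.7, 64.9 and 86.7 CPM in mild cold, against 145.9, 138.5 and 152 CPM at room temperature, and its log2 fold change was -1.11 both with room temperature 1 (SE 0.19, edgeR adjusted p = 0.0878) and without it (SE 0.21, edgeR adjusted p = 0.119). Col12a1, its close relative in stretched connective tissue, was at 17.0, 33.8 and 37.7 CPM in mild cold, against 31.7, 100.4 and 66.2 CPM at room temperature. There room temperature 1 lay within the mild cold range, and the fold of 0.445 became 0.353 without it.

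Col16a1, a collagen of fine fibrils and cell contacts, stood at 18.6, 28.5 and 31.5 CPM in mild cold, against 29.3, 53.1 and 49.2 CPM at room temperature (log2 difference -0.75, SE 0.27, edgeR adjusted p = 0.197, and -0.97 without room temperature 1). Its unadjusted p no longer passed 0.05 without mild cold 1, room temperature 2 or room temperature 3. Col22a1, a collagen of the muscle-tendon junction, had 1.30, 3.11 and 3.81 CPM in mild cold, against 1.68, 9.32 and 6.19 CPM at room temperature. Its fold of 0.476 became 0.351 without room temperature 1. Col20a1 (fold 0.661) did not pass an unadjusted p of 0.05, and Col19a1, with 2 to 8 counts in each library, was not tested.

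Basement membrane collagens had the class median nearest 0 when all 6 libraries were used. The 9 genes had a median log2 fold change of -0.43, and -0.33 without room temperature 1, with 4 and 5 genes lower at an unadjusted p under 0.05. Col4a1 and Col4a2, which form the common network under capillaries and around muscle cells, had the highest mean level of the family per kilobase over the 6 libraries, although Col3a1 was above Col4a2 at room temperature (83.7 against 67.1 CPM per kb). Col4a2 led Col3a1 narrowly (65.2 against 64.9 CPM per kb), and the order depends on the exon lengths used. Before scaling by length Col3a1 was above Col4a2 in mild cold too (452 against 419 CPM). Col4a1 stood at 634.3, 660.2 and 687.1 CPM in mild cold, against 549, 834.5 and 806 CPM at room temperature. Room temperature 1 was the lowest of the 6 libraries and room temperature 2 and 3 the highest, so the log2 fold change of -0.14 (SE 0.17, edgeR adjusted p = 0.692) was -0.31 without it (SE 0.13, edgeR adjusted p = 0.310). Col4a2, at 419 ± 27.5 CPM in mild cold, against 444.2 ± 96.0 CPM at room temperature (SD, n = 3 each), had the same order of room temperature libraries (log2 difference -0.08, SE 0.17). Its sign turned to 0.06 without room temperature 2. Col4a1 and Col4a2 lie on opposite strands, with starts 21 bases apart in RefSeq on GRCm38.p6. Their exons overlap there by a small stretch (0.3% of the exon bases of Col4a1).

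The other basement membrane genes include minor collagen IV chains and the multiplexins, hybrids of collagen and proteoglycan. Col18a1, the precursor of endostatin, was at 1.92, 2.14 and 1.92 CPM per kb in mild cold, against 5.22, 3.45 and 3.52 CPM per kb at room temperature. Mild cold libraries were close together and below every room temperature library (log2 difference -1.03, SE 0.17, edgeR adjusted p = 0.0878, and -0.81, SE 0.11, edgeR adjusted p = 0.0948 without room temperature 1). Col15a1, the other multiplexin, stood at 135.3, 144.2 and 144.3 CPM in mild cold, against 137.4, 234.6 and 199 CPM at room temperature (log2 difference -0.43, and -0.62 without room temperature 1). Col4a3, a chain of specialised basement membranes such as those of the kidney filter, was at 12.2, 15.1 and 12.8 CPM in mild cold, against 19.5, 17.9 and 23.2 CPM at room temperature, with no overlap (log2 difference -0.59, SE 0.14, edgeR adjusted p = 0.108). An antisense gene shares 5.6% of the exon bases of Col4a3, and the sources used here do not give the strand setting of the counting.

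Within the collagen IV pair on the X chromosome, Col4a5 and Col4a6, room temperature 1 weighed differently. Col4a6, a chain of smooth muscle and epithelial basement membranes, was at 1.58, 2.44 and 3.40 CPM in mild cold, against 21.2, 4.15 and 4.75 CPM at room temperature. The library room temperature 1 was several times above the rest, and the log2 fold change of -2.02 (SE 0.67) was -0.85 without it (SE 0.33). Of the smooth muscle genes, Myh11 and Cnn1 were also highest there: Myh11 ran from 63.3 to 70.6 CPM in mild cold, and was at 209.9, 92.0 and 88.6 CPM in room temperature 1 to 3. The pericyte genes of the same list, Rgs5, Kcnj8 and Abcc9, were lowest of the 6 libraries there, at 788.8, 20.4 and 205.3 CPM. Col4a5, at 46.3 ± 7.15 CPM in mild cold, against 62.2 ± 8.27 CPM at room temperature (SD, n = 3 each), had an unadjusted p of 0.0213, and of 0.0642 without room temperature 1. Col4a4 (fold 0.869) and Col7a1, the anchoring fibril collagen of skin (fold 0.673, and 0.929 without room temperature 1), did not pass an unadjusted p of 0.05 with or without that library.

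**Figure D2:**
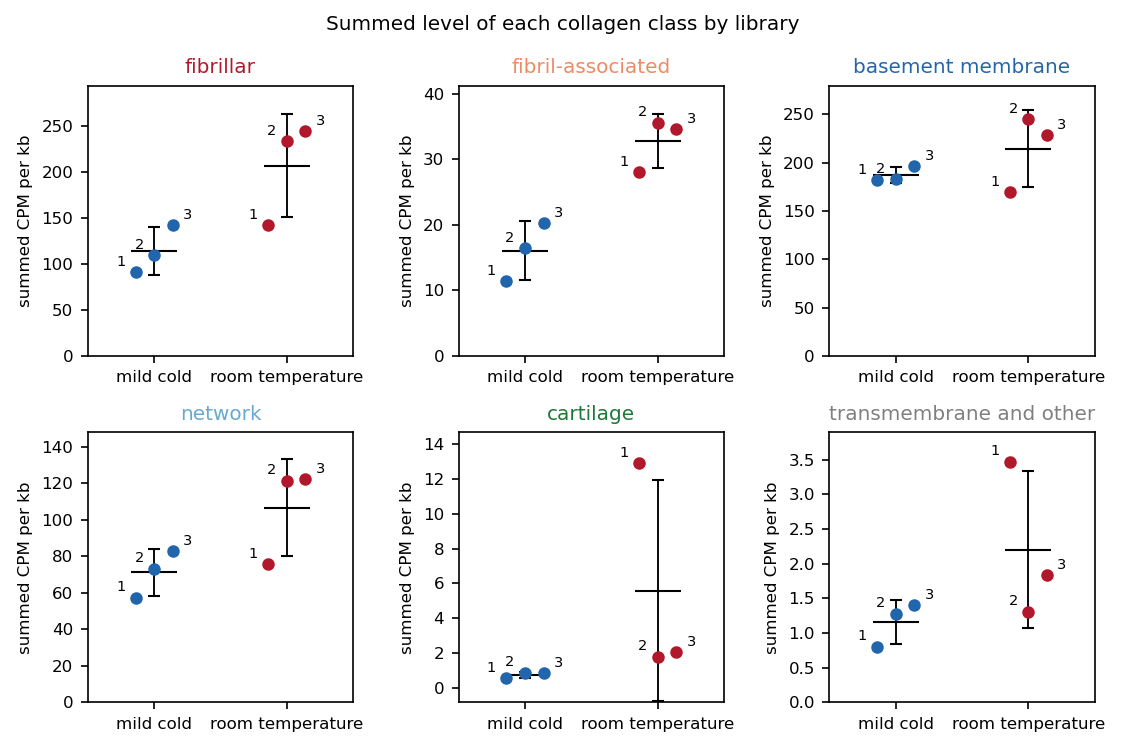
Summed CPM per kb of the genes of each class in each library, mild cold left and room temperature right; points are libraries labelled by replicate number, bars the mean and whiskers the SD of 3. Fibrillar genes sum to 91.2 to 142.6 in mild cold and 142.6 to 245 at room temperature, while in the cartilage class room temperature 1, at 12.9, stands far above all others.

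Network collagens form filaments or lattices rather than fibrils. Of 8 genes 7 were tested, and 5 were lower at an unadjusted p under 0.05 (median log2 fold change -0.55), 6 without room temperature 1 (median -0.71). These counts and medians include Col6a5, whose direction was fixed because it passed the filter through room temperature alone. Collagen VI, a beaded filament around muscle cells and fibroblasts, is a trimer of the products of Col6a1, Col6a2 and Col6a3. Col6a1 stood at 107.4, 115.5 and 139.6 CPM in mild cold, against 137.5, 201.4 and 193.2 CPM at room temperature, and Col6a2 at 107.2, 116.3 and 142.8 CPM, against 144, 200.3 and 196 CPM. Both had mild cold 3 next to room temperature 1 (Col6a1 overlapped there and Col6a2 did not). Their log2 fold changes were -0.55 (SE 0.17) and -0.56 (SE 0.17), with edgeR adjusted p = 0.160 and 0.150, and -0.71 and -0.70 without room temperature 1. Col6a3, at 58.7 ± 6.63 CPM in mild cold, against 81.3 ± 13.1 CPM at room temperature (SD, n = 3 each), had -0.47 (SE 0.14, edgeR adjusted p = 0.155). The unadjusted p of Col6a1 no longer passed 0.05 without mild cold 1 or room temperature 2, and that of Col6a3 without room temperature 2.

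Collagen VIII, a short-chain lattice of vessel walls and remodelling tissue, is built from the products of 2 genes. Col8a1 was at 106.2, 197.7 and 193.5 CPM in mild cold, against 142.4, 271.1 and 292.5 CPM at room temperature. Its lowest library was mild cold 1 and its next lowest room temperature 1 (log2 difference -0.51, SE 0.32, edgeR adjusted p = 0.430, and -0.77, SE 0.26, edgeR adjusted p = 0.246 without room temperature 1). Col8a2 was at 4.75, 11.9 and 12.8 CPM in mild cold, against 10.1, 36.0 and 37.4 CPM at room temperature. It had the same pair of low libraries, with a fold of 0.351, and 0.265 without room temperature 1. Col6a5, a chain that can take the place of that from Col6a3, also passed the filter through room temperature alone, and had 12, 2 and 92 counts in mild cold, against 186, 198 and 642 counts at room temperature. Col6a6 (fold 0.836) did not pass an unadjusted p of 0.05, and Col6a4, with 0 to 4 counts a library, was not tested.

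Cartilage collagens were rare in these hearts, and room temperature 1 held the most of them. All 5 tested genes had every mild cold library below every room temperature library, as did 13.1% of all tested genes. Col9a3 (0.555 against 0.571 CPM) and Col11a2 (2.07 against 2.23 CPM) did so narrowly. At an unadjusted p under 0.05, 3 of the 5 were lower, where 10.6% of all tested genes were. The median log2 fold change was -1.94, and -1.92 without room temperature 1. These counts and medians include Col2a1, which passed the filter through room temperature alone, so that its direction was fixed. Without room temperature 1, Col9a2, Col9a3 and Col11a2 moved toward 0, and Col11a1 moved away from it. Summed over the 7 genes, the level was 3.41, 6.19 and 6.20 CPM in mild cold, against 54.3, 14.2 and 16.2 CPM at room temperature. Of the sum in room temperature 1, 26.3 CPM was Col10a1, the collagen of hypertrophic cartilage. Col10a1 had 0, 2 and 2 counts in mild cold 1 to 3 and 1235, 0 and 12 counts in room temperature 1 to 3. It was left out of the test by the filter, which asks for expression in a whole group. Col9a1, which makes a chain on cartilage fibrils, had 0, 0 and 2 counts in mild cold, against 54, 0 and 2 counts at room temperature, and was left out too.

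Col2a1, the main collagen of cartilage, had 0, 4 and 0 counts in mild cold, against 216, 52 and 56 counts at room temperature (its p is not given, since the filter fixed its direction, nor its fitted fold change, which depends on the prior count). Room temperature 1 held the most, yet both other room temperature libraries were also above mild cold. Col9a2, another collagen IX chain, was at 0.260, 0.751 and 0.353 CPM in mild cold, against 4.70, 1.46 and 1.92 CPM at room temperature. Its log2 fold change of -2.58 (SE 0.60, edgeR adjusted p = 0.108) was -1.92 without room temperature 1 (SE 0.50, edgeR adjusted p = 0.161). Col11a2, a collagen XI chain, was at 1.89, 1.98 and 2.07 CPM in mild cold, against 8.47, 2.37 and 2.23 CPM at room temperature. With room temperature 1 left out its difference nearly closed, at a log2 fold change of -0.22 (SE 0.25), against -1.14 (SE 0.52) with it. Col9a3 went the same way, at -1.22 (SE 0.56) and -0.42 (SE 0.45), and 6.1% of its exon bases are shared with an antisense gene.

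Col11a1, the collagen XI chain that fibroblasts also make, did not share that order. It stood at 0.813, 2.95 and 3.13 CPM in mild cold, against 7.17, 8.48 and 10.6 CPM at room temperature, and room temperature 1 was the lowest of its group. Its log2 fold change was -1.94 with room temperature 1 (SE 0.47, edgeR adjusted p = 0.114) and -2.07 without it (SE 0.50, edgeR adjusted p = 0.147). Of 9 cartilage-cell markers, 5 (Acan, Hapln1, Snorc, Chad and Matn3) were highest in room temperature 1, and in 4 (Sox9, Comp, Cilp and Cilp2) it was the lowest room temperature library. Acan stood at 0.0325, 1.45 and 0.807 CPM in mild cold, against 18.0, 2.68 and 1.94 CPM at room temperature. Hapln1 had 0, 0.0536 and 0.252 CPM in mild cold, against 5.47, 1.25 and 0.707 CPM at room temperature. Snorc was at 0 in mild cold 1 and 3 and in room temperature 2 and 3, with 0.596 CPM in room temperature 1. Summed, the 9 markers ran from 225.2 to 486 CPM in mild cold and from 327.4 to 970.9 CPM at room temperature, mostly Comp and Cilp, which fibroblasts also express, and the part of cartilage cells in the collagen values was not tested.

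Of the transmembrane and other collagens, 4 of 6 were tested and 1 was lower at an unadjusted p under 0.05 (median log2 fold change -0.63), 0 without room temperature 1 (median -0.22). Col28a1, a collagen of peripheral nerve, was at 1.06, 2.41 and 2.98 CPM in mild cold, against 5.85, 3.19 and 4.42 CPM at room temperature. Its log2 fold change was -1.07 (SE 0.41, edgeR adjusted p = 0.216), and -0.84 without room temperature 1 (SE 0.43, unadjusted p = 0.0908). Leaving out mild cold 1, mild cold 2 or room temperature 3 took its unadjusted p past 0.05 as well. Col23a1, a transmembrane collagen, was at 1.33, 2.06 and 2.17 CPM in mild cold, against 8.93, 1.51 and 2.98 CPM at room temperature. Without room temperature 1, the highest library, the log2 fold change of -1.27 (SE 0.61) was -0.29 (SE 0.39). The Schwann cell marker S100b was highest in the same library. It ran from 0.975 to 1.07 CPM in mild cold, and was at 6.21, 2.59 and 2.99 CPM in room temperature 1 to 3.

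Col25a1, a transmembrane collagen needed for motor nerves to reach muscle, was the 1 tested member whose sign differed without room temperature 1. Its log2 fold change was -0.15 (SE 0.52) and became 0.63 without room temperature 1 (SE 0.39, edgeR adjusted p = 0.499), with 1.24, 0.912 and 0.807 CPM in mild cold, against 2.02, 0.623 and 0.653 CPM at room temperature. Every mild cold library lay above room temperature 2 and 3, as in 15.8% of all genes tested without room temperature 1. Col13a1, a transmembrane collagen of the nerve-muscle synapse, stood at 1.30 ± 0.339 CPM in mild cold, against 1.48 ± 0.0828 CPM at room temperature (SD, n = 3 each). Col17a1, of the hemidesmosome that fastens epithelia, had 2 to 8 counts in every library but room temperature 1, which had 58. Col26a1 had 2 to 26 counts a library. Neither of these 2 was tested.

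**Figure D3:**
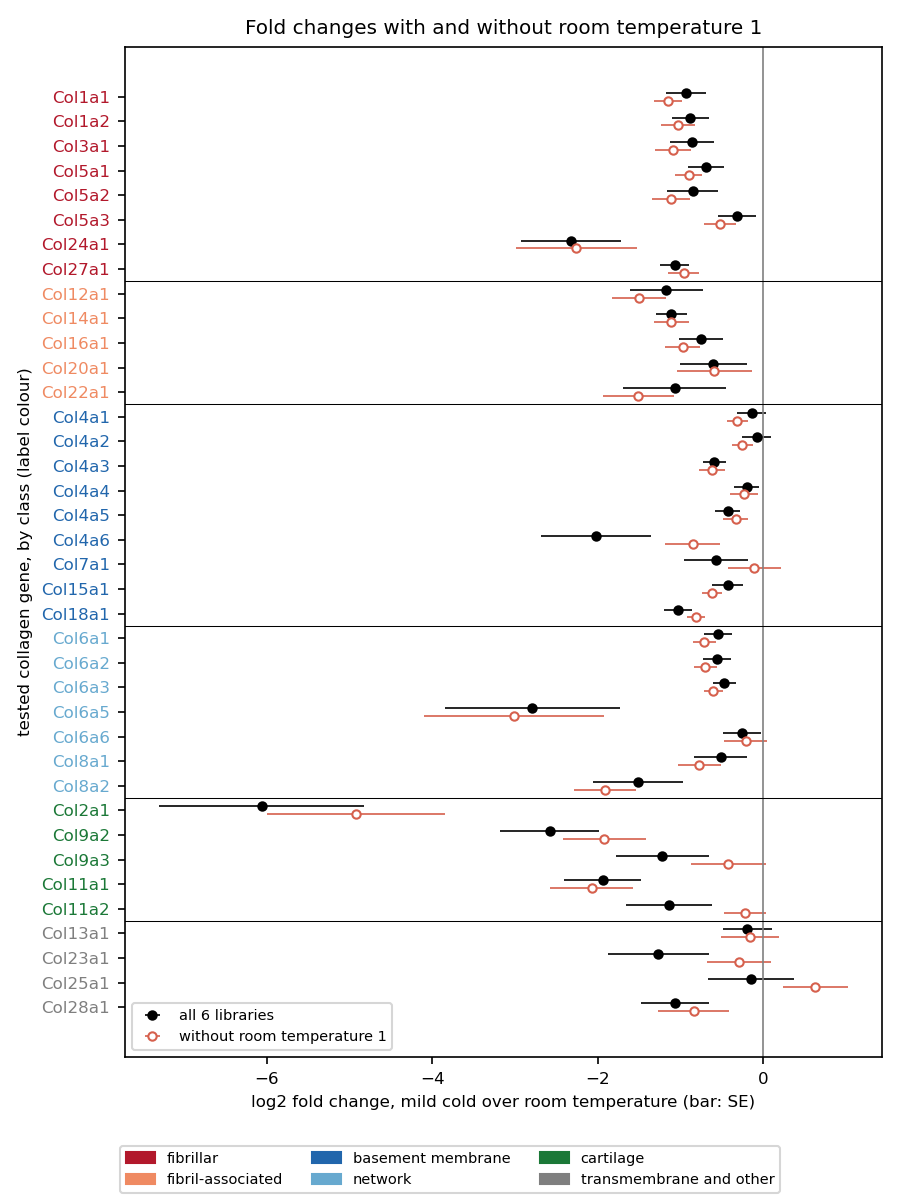
Log2 fold change of mild cold over room temperature for the 38 tested collagen genes with its SE, from all 6 libraries (filled) and without room temperature 1 (open). Most fibrillar and network genes move further from 0 without that library (Col1a1 -0.93 and -1.15), while Col4a6, Col9a3, Col11a2 and Col23a1 move toward 0.

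Room temperature 1 held different positions in different classes, which is given as a description with no test. Relative to the mean of room temperature 2 and 3 it held 0.574 times the Col1a1 CPM, 0.571 times the Col3a1 CPM, 0.509 times that of Col5a2 and 0.275 times that of Col8a2. In contrast it held 4.77 times the Col4a6 CPM, 2.78 times that of Col9a2, 3.68 times that of Col11a2 and 3.98 times that of Col23a1. It was the lowest room temperature library in 6 of 8 fibrillar, 3 of 5 fibril-associated, 3 of 9 basement membrane and 6 of 7 network genes tested, and in 1 of 5 cartilage and 0 of 4 other genes. Over all tested genes it was the lowest in 34.9%. It was the highest of the 6 libraries in 4 of 5 cartilage and 4 of 4 other genes tested, and in 2 of 8 fibrillar genes, against 23.1% of all tested genes. Among the mild cold libraries, mild cold 1 was the lowest in 28 of the 38 tested collagens, against 36.6% of all tested genes.

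**Figure D4:**
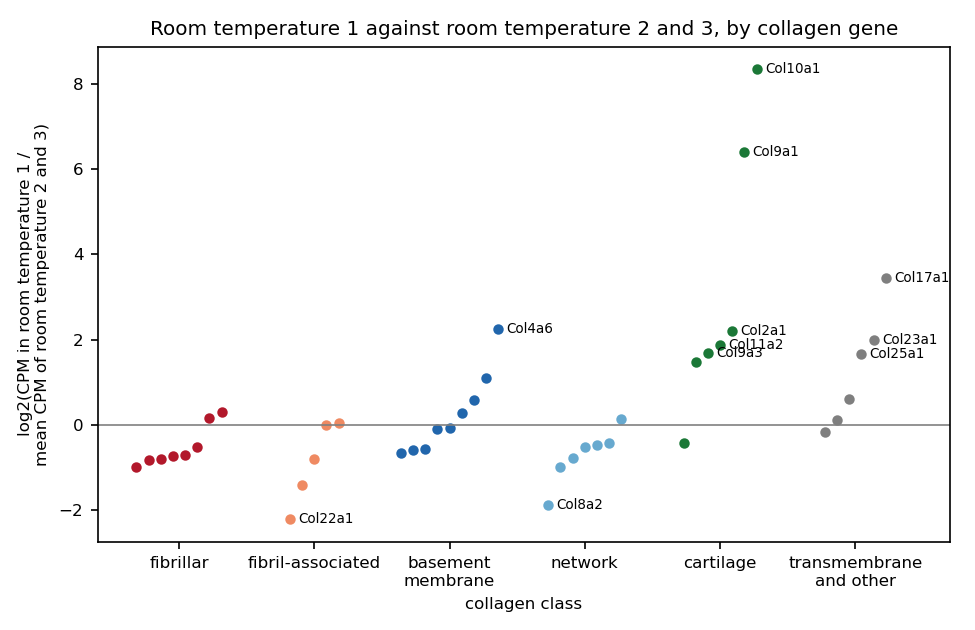
Log2 ratio of the CPM in room temperature 1 to the mean CPM of room temperature 2 and 3, 1 point per collagen gene, for the 42 genes with at least 30 counts over all libraries, by class. Most fibrillar and network genes lie below 0, and all cartilage genes but Col11a1 lie above it.

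Basement membrane genes made up more of the collagen transcripts in each mild cold library than in any room temperature library, and fibrillar genes less. Counted per kilobase, basement membrane genes were 53.0, 47.5 and 44.2% of the summed collagen level in mild cold 1 to 3, against 39.2, 38.3 and 36.0% in room temperature 1 to 3. Fibrillar genes were 26.6, 28.5 and 32.1% in mild cold and 33.0, 36.6 and 38.6% at room temperature. Neither pair of groups overlapped, and here room temperature 1 stood with the other room temperature libraries. Fibril-associated genes took 4.07 ± 0.650% in mild cold and 5.83 ± 0.555% at room temperature, and network genes 18.1 ± 1.27% and 18.6 ± 0.915% (SD, n = 3 each). Cartilage genes took 0.157 to 0.229% in mild cold, and 0.279 and 0.325% in room temperature 2 and 3. In room temperature 1 they made up 12.9 of 432.1 CPM per kb.

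**Figure D5:**
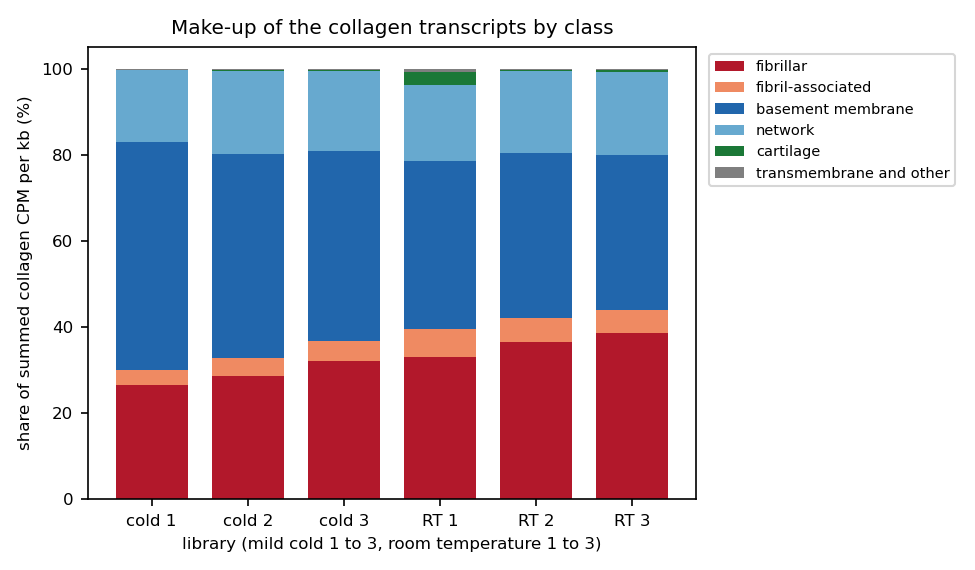
Share of each collagen class in the summed collagen CPM per kb of each library, with mild cold libraries left of room temperature libraries. The basement membrane part is 44.2 to 53.0% in mild cold and 36.0 to 39.2% at room temperature, and the fibrillar part 26.6 to 32.1% and 33.0 to 38.6%.

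Paired chains of collagens I, IV and VI kept close ratios across the libraries. Col1a1 per kilobase was 1.05 ± 0.123 times Col1a2 in mild cold and 1.05 ± 0.116 times at room temperature (SD, n = 3 each). The ratio of Col6a1 to Col6a2 was 1.88 ± 0.0230 in mild cold and 1.87 ± 0.0483 at room temperature, and that of Col4a1 to Col4a2 was 1.40 ± 0.0815 and 1.46 ± 0.0445. Col1a1 to Col3a1, the main interstitial pair, stood at 0.501 ± 0.0318 in mild cold and 0.520 ± 0.0267 at room temperature, and Col5a1 to Col5a2 at 0.740 ± 0.196 and 0.652 ± 0.0718. Of the 6 ratios compared, the groups did not overlap in 1, Col8a1 to Col8a2, which was 12.8, 9.52 and 8.66 in mild cold, against 8.08, 4.32 and 4.48 at room temperature. The difference in its log2 was 0.92 (exact 2-sided permutation test, p = 0.1, the smallest that 3 against 3 libraries allow, adjusted p = 0.6 over the 6 ratios). Exact permutation p of the other ratios ran from 0.3 to 1.

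Promoter sequence is shown for 3 fibrillar genes that were each lower in mild cold (Col3a1, Col5a1, Col27a1) and for 2 cartilage genes. Of the cartilage genes, Col11a1 was lowest of its group in room temperature 1, and Col10a1 was highest there. Windows were found for 35 of the 44 members in RefSeq on GRCm38.p6, an earlier build than the GRCm39 of the counts. The stretches are the 150 bases before the annotated start, all on the plus strand, at chr1:45311388-45311537, chr2:27886275-27886424, chr4:63215262-63215411, chr3:114030390-114030539 and chr10:34389831-34389980 in the order below. Capitals mark the TATA box letters TATAAA, the CCAAT box and the GC box letters GGGCGG, or the reverse complement of any of these.
Col3a1: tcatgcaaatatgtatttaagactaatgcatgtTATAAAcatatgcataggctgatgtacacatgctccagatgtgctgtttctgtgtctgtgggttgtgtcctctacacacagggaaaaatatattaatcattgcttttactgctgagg
Col5a1: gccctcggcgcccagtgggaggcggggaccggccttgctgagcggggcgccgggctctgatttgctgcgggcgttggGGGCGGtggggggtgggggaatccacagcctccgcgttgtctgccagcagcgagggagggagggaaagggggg
Col27a1: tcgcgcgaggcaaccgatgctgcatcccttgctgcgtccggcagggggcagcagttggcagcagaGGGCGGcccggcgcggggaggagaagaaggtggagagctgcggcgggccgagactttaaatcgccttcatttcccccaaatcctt
Col11a1: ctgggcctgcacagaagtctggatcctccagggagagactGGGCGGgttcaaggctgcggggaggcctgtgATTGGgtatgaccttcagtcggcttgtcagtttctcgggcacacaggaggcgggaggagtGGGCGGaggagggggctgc
Col10a1: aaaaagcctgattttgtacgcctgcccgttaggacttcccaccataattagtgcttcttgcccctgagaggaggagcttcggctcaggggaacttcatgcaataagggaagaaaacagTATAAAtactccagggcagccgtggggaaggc
In the 250 bases before the start, searched on both strands, the GC box was present in 22 of 38 collagen windows (57.9%) and in 32.7% of all 32851 promoter windows. By class it was in 4 of 6 fibrillar, 7 of 9 network, 5 of 9 basement membrane, 3 of 6 cartilage, 1 of 3 fibril-associated and 2 of 5 transmembrane and other windows. CCAAT was present in 34.2% of collagen windows and 33.8% of all windows, the TATA letters in 13.2% and 12.4%, and CAGAC, the letters of a SMAD-binding element, in 44.7% and 42.2%. These counts describe letters in the windows and nothing more.

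Genes that make, trim, bind or cut collagen chains were set beside the collagens. Of 46 listed genes 45 were tested, and 21 were lower and 0 higher at an unadjusted p under 0.05 (median log2 fold change -0.37, 0 past edgeR's adjusted p of 0.05, smallest adjusted p = 0.0813). Over all tested genes 10.6% were lower and 9.11% higher by the same rule, with a median of -0.02 and 0% past the adjusted p. Without room temperature 1, 26 were lower and 1 higher (median -0.37), where 8.43% of all tested genes were lower and 6.8% higher (median -0.00). The higher gene was Mmp8, which was not tested with 6 libraries. It had 22, 48 and 8 counts in mild cold, against 1 and 12 counts in room temperature 2 and 3. Mmp8 passed the filter there through mild cold alone and so had to come out higher. Among chain modification and folding genes 8 of 19 were lower, among those that remove propeptides 3 of 8, among crosslinking genes 2 of 5, among collagen receptors 4 of 8 and among collagen-cleaving proteases 4 of 5 tested. The median log2 fold changes of these sublists were -0.27, -0.36, -0.84, -0.58 and -0.94, in the same order. Without room temperature 1 they were -0.32, -0.32, -1.04, -0.61 and -0.91, the last with Mmp8 included. Mmp14, a membrane protease that cleaves fibrillar collagen, stood at 13.8, 11.7 and 12.8 CPM in mild cold, against 22.2, 28.3 and 28.6 CPM at room temperature (log2 difference -1.05, SE 0.13, edgeR adjusted p = 0.0813). Ddr2, the fibroblast receptor for fibrillar collagen, was at 65.3, 68.9 and 65.2 CPM in mild cold, against 101.2, 87.2 and 91.3 CPM at room temperature, and in both genes the groups did not overlap. Mrc2, which takes up collagen fragments, was at 28.2, 35.1 and 34.9 CPM in mild cold, against 43.1, 53.7 and 59.0 CPM at room temperature (log2 difference -0.67, SE 0.14). Ctsk, a collagen-degrading cathepsin, averaged 8.98 ± 2.25 CPM in mild cold, against 20.4 ± 5.71 CPM at room temperature (SD, n = 3 each), with no overlap between the libraries (log2 difference -1.19, SE 0.26).

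Fibroblast markers were lower in the same libraries as the collagens. The 8 markers summed to 2472, 3805 and 3618 CPM in mild cold, against 4294, 4508 and 5629 CPM at room temperature, with 5 of 8 lower at an unadjusted p under 0.05 (median log2 fold change -0.55). For this and the next lists, 10.6% of all tested genes were lower and 9.11% higher by that rule. In this sum, which was mostly Dcn and Gsn, mild cold 1 was lowest, as it was for most collagens, and room temperature 1 lay above the mild cold range. By gene, room temperature 1 lay above that range for Dcn, Lum, Dpt and Gsn. It lay inside the range for Pdgfra, Tcf21 and Mfap5, and below it for Pdgfrb. The 5 activated fibroblast markers summed to 524.2 to 815.6 CPM in mild cold, against 745.5 to 1060.4 CPM at room temperature, with 2 of 5 lower. Endothelial markers, of cells that rest on collagen IV, summed to 914.6 to 1066 CPM in mild cold, against 657.9 to 942.3 CPM at room temperature, with 0 of 6 lower and 1 higher (Emcn), and room temperature 1 was the lowest library, as it was for Col4a1 and Col4a2. Smooth muscle and pericyte markers summed to 1700.2 to 1722 CPM in mild cold, against 1259 to 1428 CPM at room temperature, with 2 of 5 lower (Myh11 and Cnn1) and 3 higher. Ventricular muscle markers summed to 24050.4 to 29398 CPM in mild cold, against 16443 to 24177 CPM at room temperature.

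Further marker sums were 132.6 to 147.4 CPM in mild cold, against 148.8 to 223.9 CPM at room temperature for macrophages, and 5.76 to 14.3 and 12.9 to 44.0 CPM for epicardium and mesothelium. Skeletal muscle markers summed to 1301 to 1364 CPM in mild cold, against 886.6 to 1645 CPM at room temperature, mostly Acta1 and Ckm. Myh4, Myh1 and Actn3 had 1638, 917 and 358 counts in room temperature 3 and at most 16, 14 and 16 counts in any other library. Hepatocyte markers summed to 4.85 to 241.6 CPM in mild cold, against 0.748 to 30.4 CPM at room temperature. Atrial markers summed to 145.8 to 357.9 CPM in mild cold, and to 4919 CPM in room temperature 1, 607 CPM in room temperature 2 and 734.8 CPM in room temperature 3. Outside room temperature 1 this sum was nearly all Nppa. That gene ran from 144.8 to 356.5 CPM in mild cold, and was at 603.7 and 732.8 CPM in room temperature 2 and 3. In those libraries Myl4 did not pass 1.90 CPM, Myl7 0.431 CPM or Sln 0.151 CPM. The brown fat gene Ucp1, at 184.8 CPM in room temperature 1, was at 0 in mild cold 1 and 2 and in room temperature 2 and 3. What part any of these cells had in the collagen values was not tested.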

How the data were processed

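RNA from 6 heart samples was taken with TRIzol, enriched for mRNA and sequenced, per the labels' protocols. The authors deposited whole-number counts per gene without normalization. Counting was with featureCounts 2.0.3 on build GRCm39, per the submitters' processing notes. The sources used here name no aligner, annotation release, strand setting or treatment of mates. Of low counts (1 to 10), 71.9% to 78.3% per library were even, so counts may exceed fragments. Counts of every pair of libraries differed. Symbols came from GENCODE M21, matched on the ID without its version (55141 of 55401 matched), and lengths are the union of M21 exons, on an earlier build than GRCm39.

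Tests used edgeR 4.0.16 under R 4.3.3 (quasi-likelihood, 2-sided, group only, TMM scaling, default filter by group, which asks for about 0.234 CPM in 3 libraries), with Benjamini-Hochberg adjustment over all 16757 genes tested and 0.05 as the threshold. SE is the size of the log2 fold change divided by the root of F. CPM uses the TMM-scaled totals of the 6 libraries. The fit without room temperature 1 has 5 libraries. The script was tested on simulated counts with known folds. The members, classes, lists and the rule for genes given in full (in each class the 2 highest per kilobase and the 2 with the smallest p) were chosen with earlier results of these data known. Alternatives were DESeq2 1.42.0 (size factors, and Wald test), library totals, upper-quartile scaling, limma-voom (limma 3.58.1), other filters, the replicate number as a block, structural classes, and leaving out each library. The summed level of 1 marker list is not reported here. Whether libraries are separate animals is not in the labels, and p-values then reflect the spread between these libraries alone, which may be technical.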

Additional observations from a re-analysis of the deposited data

How the results depend on the processing

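The collagen median was negative in every alternative run (-1.11 to -0.67 over those on 6 libraries and those without 1 library), and in none was a member higher at an unadjusted p under 0.05. With library totals only, the middle value over all genes was -0.27, against -0.02 with TMM. The collagen median was -1.11 (-1.02 without room temperature 1), the basement membrane median -0.67 (-0.54), and 7 members passed the adjusted threshold, where 356 of 16757 genes did (17 members without room temperature 1, where 368 of 17231 genes did). Without an expression filter 4 members passed it, where 184 of 29942 genes did, and 23 without room temperature 1, where 1675 of 28856 genes passed. The DESeq2 Wald test called 15 and 21. With at least 1 CPM in 3 libraries the cartilage median without room temperature 1 was -1.15, as fewer of its genes were tested. In all other cases the cause was not tested.

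Leaving out 1 library at a time, 14 (without mild cold 1) to 26 members were lower at an unadjusted p under 0.05, and 17 to 31 (without room temperature 1) did not overlap. Over all genes, 2422 of 17395 had such a p in either direction without mild cold 1, and 3722 of 17479 without room temperature 2. With all 6 libraries 3295 of 16757 did. Without room temperature 1, 17.8% of all genes had every mild cold library below room temperature 2 and 3. The basement membrane median ran from -0.51 (without mild cold 3) to -0.33 (without room temperature 1). The log2 difference in ratio ran from -0.10 to 0.07 for Col1a1 to Col1a2, from -0.01 to 0.03 for Col6a1 to Col6a2 and from -0.04 to 0.34 for Col5a1 to Col5a2. The difference in share ran from -0.985 to 0.263 percentage points for network genes and from -0.252 to 0.0471 for transmembrane and other genes. Col4a2 ran from -0.25 (without room temperature 1) to 0.06 (without room temperature 2).

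No pairing by replicate number was seen: the deviations of same-numbered libraries correlated at 0.0971, -0.173 and -0.0867, and not every library correlated best with its own number. So few correlations cannot show whether the samples were paired. With the replicate block 24 members were lower at an unadjusted p under 0.05, 0 passed the adjusted threshold and the median was -0.83. Over all genes 2780 of 16757 had an unadjusted p under 0.05 in either direction with the block, against 3295 without it. The block took the p of Col28a1 (-1.12) past 0.05 and brought that of Col8a1 (-0.49) under it. The count of genes past the adjusted threshold over all genes was 1 there. Of the values of single named genes under the alternatives, 236 kept their direction and their side of an unadjusted p of 0.05, 14 no longer passed it, 14 newly passed it and 1, Col4a2, reversed. The expression filter left 6 members untested, among them Col10a1, which had 1235 counts in room temperature 1.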
